A study of Mus musculus with 17 samples.

Results

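The step from 3 h to 6 h after estradiol (E2) in the wild-type (WT) mouse uterus was measured on 5 of the study's 17 arrays. These were the 2 arrays labelled WT at 6 h (replicates 1 and 2), set against the 3 arrays labelled WT at 3 h (replicates 1, 2 and 3), and they were chosen by their titles alone. The study hybridised total RNA of whole uterus, taken from WT mice and from mice with a knockout (KO) of Egr1, to an Illumina whole-genome mouse bead array at several times after E2. All 5 arrays share the genotype, the tissue and the hormone and differ in the time since E2. The same step in KO uterus, 2 arrays at 6 h and 2 at 3 h, served as a comparison, and the arrays taken before E2 entered only the alternative fit of all 17 arrays. The filter on low values, the probe choice and the estimate of the spread used all 13 arrays of 3, 6 and 24 h, KO arrays included. The sources used here do not give the dose of E2, the age of the mice, any ovariectomy, the allele behind the knockout or any pooling of animals. They also do not say whether the arrays of 1 group carry RNA of different animals. The p-values therefore reflect the spread between arrays of a group, pooled over the 6 groups fitted, and that spread may be technical.

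E2 enters uterine cells and binds the estrogen receptor, a transcription factor that switches genes on and off directly and also starts kinase signalling at the membrane. In the rodent uterus a brief wave of immediate-early transcription factors and growth signals comes first, with water uptake and blood vessel leakage. Protein synthesis, secretion and then DNA synthesis in the epithelium follow later. Within such a wave a transcript can decay, hold its level or only start to accumulate, and the step between a pair of times is a direct reading of that. The step alone does not tell whether a level lay above or below that before E2.

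Values are log2 expression values, already brought to a common distribution on every array by the authors, so 1 unit is a 2-fold difference and a change is one of rank among the genes on an array rather than of RNA per cell. A gene was called where limma's adjusted p was under 0.05. It was said to hold where the 95% confidence interval of its change lay wholly within 1.5-fold in either direction. The arrays correlated at 0.9968 within WT 6 h and at 0.9946 to 0.9955 within WT 3 h, against 0.9808 to 0.9843 between the groups, over all 45281 probes. In KO uterus the arrays were less alike, at 0.9916 within 6 h and 0.9908 within 3 h. Whole uterus is a mixed tissue, and in it fewer cells of a type and less RNA per cell cannot be told apart.

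Most genes held and a small number moved far. Of 14358 genes tested, 2080 (14.5%) were called higher at 6 h and 2004 (14%) lower, 4084 (28.4%) in all. The counts of each list below stand beside these shares. At least 2-fold changes were called for 145 genes (1.01%), 51 of them higher (0.355%) and 94 lower (0.655%). The interval lay within 1.5-fold for 12593 genes (87.7%), and 2552 of the called genes were among these, so a call alone does not mean a large change. Only 233 genes were neither called nor held. Dim probes move little on such arrays, and among the 7237 genes whose mean over the 5 arrays lay above 8.87, the 75th percentile of all probes, 5655 held (78.1%), 1696 were higher and 1629 lower. The central 80% of all changes ran between -0.288 and 0.282, with a median of -0.001. The arrays of the 2 groups did not overlap for 7893 genes (55%), 3936 higher (27.4%) and 3957 lower (27.6%). Without 1 of the WT 3 h arrays, 1727 to 1856 genes were called higher and 1631 to 1834 lower. Calls were fewer without either WT 6 h array, which leaves 1 array in that group. Fewer calls in such fits, here and below, do not show the weight of the array left out.

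Among the largest falls was Chac1, which encodes an enzyme that breaks down glutathione and is a target of the stress factor ATF4. It read 9.05 and 9.13 on the WT 6 h arrays, against 12.80, 13.58 and 12.29 on the WT 3 h arrays. The 6 h arrays lay together, whereas the 3 h arrays were spread over more than 1 unit, all far above them. The change was -3.80 ± 0.59 (SE; limma, adjusted p = 0.000542, as for the values in brackets below). Flrt1, for a leucine-rich transmembrane protein, read 10.48 and 10.20 at WT 6 h, against 12.61, 12.60 and 12.66 at WT 3 h, a change of -2.28 ± 0.25 (5.91e-05), and its other, dimmer probe changed by -0.95. The growth inhibitor gene Tob1 read 10.02 and 9.95 at WT 6 h, against 12.01, 12.03 and 11.98 at WT 3 h. Its change was -2.02 ± 0.20 (3.59e-05), and the arrays of either time nearly coincided. Wwc2, of a family of scaffold proteins of the Hippo pathway, read 11.91 and 11.98 at WT 6 h, against 13.84, 13.80 and 13.81 at WT 3 h (-1.87 ± 0.12, 3.06e-06). The other 11 of the 15 largest falls had changes of -2.03 to -1.58 and belonged to 5730409K12Rik, the guidance cue Sema5a, Ypel3, the serine protease gene Prss22, Pdk4, Trib3, Fos, the calcium channel gene Cacna1h, Csrnp3, Phf21b and Wnt4. A further probe of Ypel3 and the brightest further probe of Cacna1h, both dim, changed by -0.09 and 0.06, so neither repeats the fall seen on the probe used.

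The largest rise was that of Sox5, a transcription factor gene best known from cartilage. It read 11.85 and 11.95 on the WT 6 h arrays, against 9.90, 9.96 and 9.96 on the WT 3 h arrays, with a wide gap between the groups. The change was 1.96 ± 0.17 (SE; limma, adjusted p = 2.09e-05), and the brightest of 5 further probes of the gene changed by 1.95. Ccl11, for the chemokine eotaxin that draws eosinophils, read 11.11 and 11.44 at WT 6 h, against 9.69, 9.47 and 9.45 at WT 3 h (1.74 ± 0.31, 0.00142). Lcn2, for a secreted protein that binds iron carriers of bacteria, read 13.82 and 13.71 at WT 6 h, against 12.07, 12.04 and 12.26 at WT 3 h (1.65 ± 0.14, 1.73e-05). Tnc, for the matrix glycoprotein tenascin C, read 11.00 and 11.14 at WT 6 h, against 9.46, 9.30 and 9.59 at WT 3 h (1.62 ± 0.29, 0.00135), and the brightest of its 6 further probes changed by 1.51. The absence of overlap in genes named for large changes, above and below, follows from the rule that chose them. The other 11 of the 15 largest rises, with changes of 1.20 to 1.65, were Slc25a48 of the mitochondrial carrier family, the lipase inhibitor gene Angptl4, Sdf2l1, the matrix gene Spon2, the relaxin-family receptor gene Rxfp2, Sprr2f, Col23a1, Ccng1, Dio2, whose enzyme activates thyroid hormone, Denn2b and the interleukin receptor gene Il17rb. The second probes of Angptl4, Spon2 and Dio2 were dim and changed by 0.02, 0.08 and 0.01. Sprr2f belongs to a family of near-identical genes, so which member rose is uncertain, and its call was lost without either WT 6 h array (limma, adjusted p = 0.0543 without replicate 1 and 0.0696 without replicate 2).

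**Figure D1:**
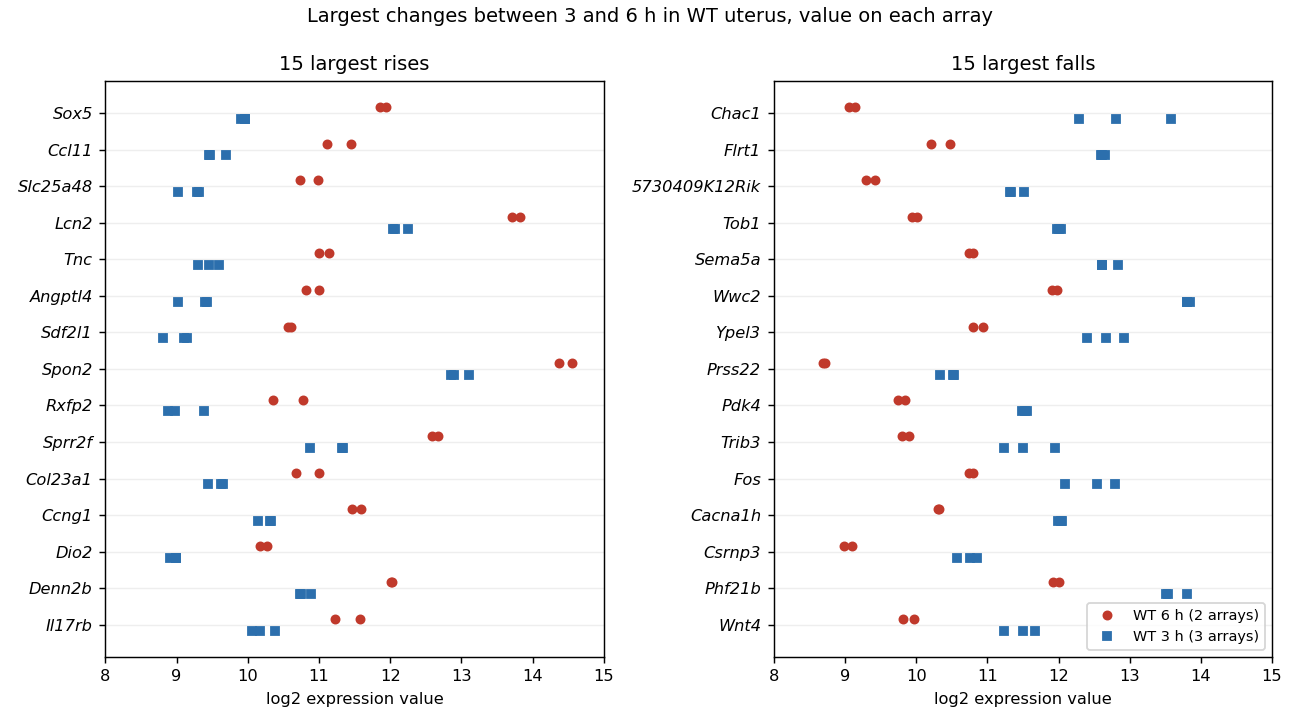
Log2 expression value (x axis) on each array of the 15 largest called rises (left) and the 15 largest called falls (right) among genes whose WT groups do not overlap, with WT 6 h as red circles above WT 3 h as blue squares in each row. The gap between red and blue points follows from this choice, and Chac1 has both the widest gap and the widest spread at 3 h.

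Immediate-early transcription factors are genes that a signal switches on without new protein synthesis, and their transcripts are short-lived. Of the 33 in the list, 30 passed the filter on low values, and 21 of these were lower at 6 h and 0 higher, beside 14% lower and 14.5% higher over all genes tested. The median change of the 30 was -0.503. The mean over the list was 10.075 and 10.076 on the WT 6 h arrays, against 10.685, 10.634 and 10.527 on the WT 3 h arrays, with no overlap. Fos, a subunit of the AP-1 factor, read 10.79 and 10.74 at WT 6 h, against 12.79, 12.54 and 12.09 at WT 3 h (-1.71 ± 0.20, 8.97e-05). Egr3, a zinc-finger factor of the Egr family, read 9.93 and 10.18 at WT 6 h, against 11.41, 11.28 and 11.10 at WT 3 h (-1.21 ± 0.12, 4.52e-05), although its other, dim probe changed by 0.06. The stress factor gene Atf3 read 8.91 and 8.88 at WT 6 h, against 10.09, 10.05 and 9.89 at WT 3 h (-1.11 ± 0.15, 0.000176). The times did not overlap for any of the 3 genes, and the 3 h arrays were farthest apart for Fos. Cebpb, a factor that the uterus uses in its response to steroid hormones, fell by 0.97 ± 0.11 (6.34e-05). The called falls in the list ran from -1.71 for Fos to -0.23 for Maff. Of the 9 members that were not called, Cebpd had the highest change, 0.08, and Egr2 and Klf6 the lowest, -0.29 and -0.30.

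The list also held 13 members whose change lay within 1.5-fold. Srf, the factor that drives many immediate-early genes through the CArG box, read 12.62 and 12.52 at WT 6 h, against 12.89, 12.97 and 12.90 at WT 3 h. The groups did not overlap, the change of -0.35 ± 0.10 was called (0.0235), and its interval of -0.58 to -0.12 stayed within 1.5-fold. Fosl2, another AP-1 subunit, changed by -0.44 with an interval of -0.58 to -0.30, and Klf6, a Krüppel-like factor, by -0.30 with an interval of -0.53 to -0.07. In the 250 bases before the RefSeq gene starts a CArG box, searched on both strands, stood in 2 of 22 listed genes with a promoter in the table (9.09%), Srf and Egr2, and in 1.54% of 11525 genes. Of the 8 motifs searched, the EGR site (GCGNGGGCG) was the most frequent in these 22 genes, as it was over all 11525 genes. It stood in 8 of the 22 (36.4%), beside 9.19% of the 11525. In the other lists its share ran from 0% (prostaglandin and polyamine genes) to 25.7% (G1 cyclins, CDK inhibitors and growth restraint). Feedback inhibitors had 25%. The Srf promoter is printed because it holds a pair of CArG boxes and because Srf was the called member that had one. Capitals mark the boxes. In build GRCm38.p6 the stretch is chr17:46556195-46556274, minus strand, and it is written 5′ to 3′ along the gene.
Srf: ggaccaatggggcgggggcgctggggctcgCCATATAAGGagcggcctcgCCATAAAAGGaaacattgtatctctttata

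Feedback inhibitors are proteins that the same signals induce and that then damp them, such as the dual-specificity phosphatases, the SOCS proteins and RNA-decay factors. Of 38 in the list 35 were tested, and 22 were lower at 6 h and 2 higher, with a median change of -0.282. The list mean was 10.108 and 10.088 at WT 6 h, against 10.497, 10.508 and 10.468 at WT 3 h. Next to Tob1, Socs3, an inhibitor of cytokine receptor signalling, read 12.09 and 11.88 at WT 6 h, against 13.46, 13.46 and 13.19 at WT 3 h (-1.39 ± 0.18, 0.00016). Dusp6, a phosphatase of the ERK kinases, read 11.19 and 11.33 at WT 6 h, against 12.57, 12.78 and 12.48 at WT 3 h (-1.35 ± 0.17, 0.000121), and its brightest further probe changed by -1.02. In both genes the 6 h arrays lay more than 1 unit below the lowest 3 h array. Gadd45a, a growth arrest gene, fell by 1.05 ± 0.20 (0.00166). The higher members were Nab1, a corepressor of the Egr factors (0.59), and Rgs2, a regulator of G-protein signalling (0.55). Other members held: Btg1, an antiproliferative gene of the Tob1 family, changed by 0.14 with an interval of -0.12 to 0.41, Spred1, an inhibitor of Ras signalling, by -0.14 with an interval of -0.28 to 0.00, and the RNA-decay factor gene Zfp36l1 by -0.27 with an interval of -0.43 to -0.11. With each WT array left out in turn the number of lower members was 16 to 19, and 15 to 20 in the immediate-early list.

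**Figure D2:**
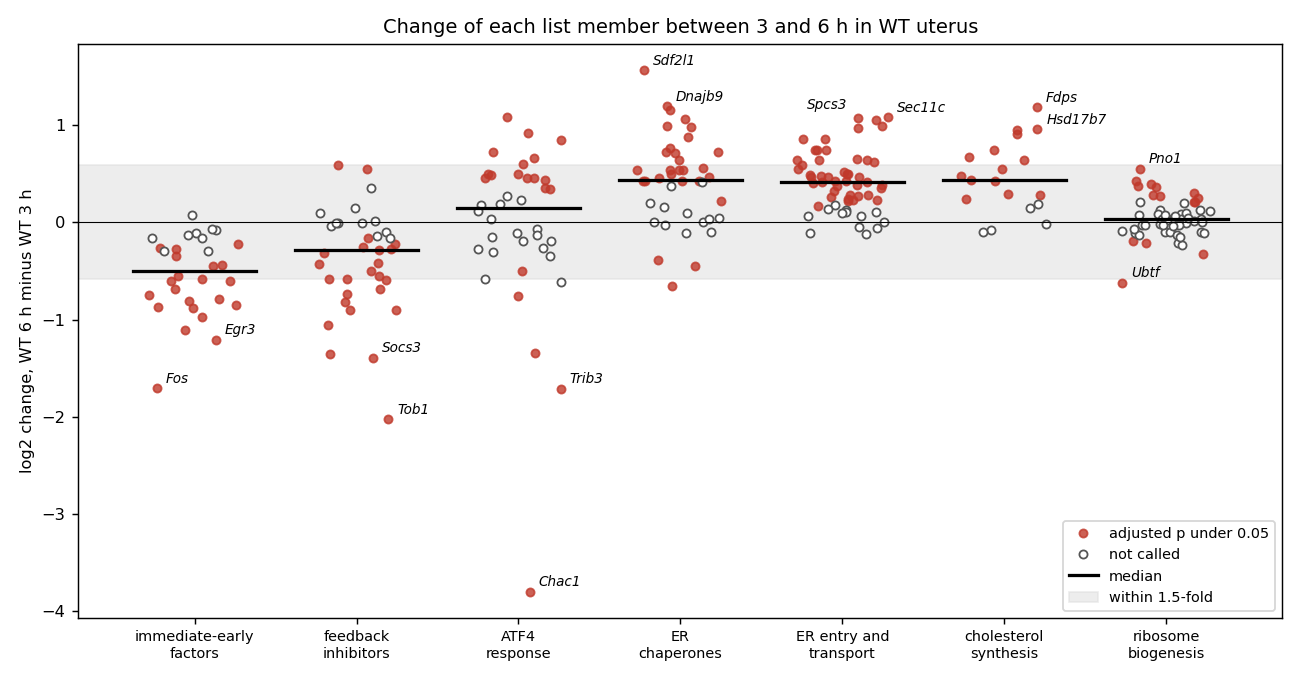
Log2 change, WT 6 h minus WT 3 h (y axis), of each tested member of 7 gene lists (x axis), filled red where limma's adjusted p is under 0.05 and open where it is not, with a bar at the list median and a grey band for changes within 1.5-fold. Both lists on the left lie mostly below 0, with medians of -0.503 and -0.282, the ER and cholesterol lists lie mostly above it with medians of 0.413 to 0.441, and ribosome biogenesis lies within the band apart from Ubtf.

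ATF4 is a transcription factor that cells translate when amino acids run short or unfolded proteins accumulate, and its targets import and make amino acids and charge tRNAs. Here the list split. Of 54 genes 38 were tested, and 15 were higher (39.5%, beside 14.5% of all genes) and 5 lower (13.2%, beside 14%). Of the 38, 16 held, and the median was 0.145. The list mean was 10.842 and 10.837 at WT 6 h, against 10.813, 11.004 and 10.823 at WT 3 h. The groups thus overlapped, with WT 3 h replicate 2 the highest. The lower ones were Chac1, Trib3, Cars, Slc38a2 and Stc2. Trib3, a pseudokinase that restrains ATF4, read 9.90 and 9.80 at WT 6 h, against 11.50, 11.96 and 11.23 at WT 3 h (-1.71 ± 0.34, 0.00257). Cars, the tRNA synthetase for cysteine, read 10.00 and 10.08 at WT 6 h, against 11.47, 11.44 and 11.25 at WT 3 h (-1.35 ± 0.12, 1.97e-05), while the brightest of its further, dim probes changed by -0.15. On these genes the 3 h arrays stood at least 1 unit above the 6 h arrays. In contrast Aldh1l2, a mitochondrial folate enzyme, read 10.26 and 10.25 at WT 6 h, against 9.20, 9.15 and 9.17 at WT 3 h (1.08 ± 0.12, 8.13e-05), with the brightest of its further, dim probes at -0.22. Asns, asparagine synthetase, read 13.33 and 13.30 at WT 6 h, against 12.21, 12.66 and 12.33 at WT 3 h (0.92 ± 0.17, 0.00142). Replicate 2 was the highest of the 3 h arrays for Asns as it was for Chac1 and Trib3, and still lay below both 6 h arrays for Asns. Psat1, of serine synthesis, was 0.84 higher, and the synthetase genes Mars1, Lars, Eprs, Nars, Sars, Tars and Wars were 0.45 to 0.66 higher. Atf4 itself held, with a change of -0.15 and an interval of -0.29 to 0.00, although its second probe changed by -0.55. Gars and the related factor Atf5 held too, at 0.27 and 0.34. The number of higher members was 9 without WT 6 h replicate 1, and the number of lower ones was 10 in place of 5 when the 5 WT arrays were fitted alone.

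The DNA element that ATF4 binds with its partners, the CARE (TGATGNAA, both strands), stood in 9 of the 30 ATF4-list promoters in the RefSeq table (30%), against 2.83% of 11525 genes. Of these 9 genes Chac1 was lower, Asns and Tars were higher, and 6 (Aars, Fgf21, Gars, Nupr1, Slc7a11 and Vldlr) were not called. The called genes' sequences are printed because they match the same consensus and moved in opposite directions. They are taken from the 250 bases before the gene start in build GRCm38.p6 and written along the gene, with the element in capitals on either strand. Chac1 is at chr2:119351019-119351098, plus strand, Asns at chr6:7693210-7693262, minus strand and Tars at chr15:11399659-11399703, minus strand. The element began 193 bases before the start of Chac1, 23 before that of Asns and 15 before that of Tars.
Chac1: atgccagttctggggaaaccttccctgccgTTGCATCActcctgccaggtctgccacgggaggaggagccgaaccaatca
Asns: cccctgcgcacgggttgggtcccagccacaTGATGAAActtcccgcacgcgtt
Tars: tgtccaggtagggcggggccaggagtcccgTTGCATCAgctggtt

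Secreted and membrane proteins fold in the endoplasmic reticulum (ER), where chaperones, disulfide isomerases and degradation factors handle them. Of 46 genes for ER chaperones and folding 40 were tested, and 25 were higher at 6 h and 3 lower, with a median of 0.441. The list mean was 10.863 and 10.879 at WT 6 h, against 10.485, 10.388 and 10.46 at WT 3 h, so each 6 h array lay above each 3 h array. Sdf2l1, a cofactor of the chaperone BiP, read 10.56 and 10.61 at WT 6 h, against 9.11, 8.81 and 9.15 at WT 3 h (1.57 ± 0.22, 0.000261). Dnajb9, a co-chaperone that also restrains the stress sensor IRE1, read 12.42 and 12.45 at WT 6 h, against 11.34, 11.05 and 11.34 at WT 3 h (1.19 ± 0.16, 0.00024), and its second probe changed by 1.01. Pdia4, a disulfide isomerase, read 12.44 and 12.57 at WT 6 h, against 11.39, 11.24 and 11.43 at WT 3 h (1.16 ± 0.17, 0.000323). Each of the 3 genes was more than 1 unit higher on every 6 h array than on replicate 2 at 3 h, the lowest array of the 5 for all of them. Creld2, another secreted ER stress protein, read 13.26 and 13.15 at WT 6 h, against 12.22, 11.86 and 12.33 at WT 3 h (1.07 ± 0.29, 0.0141), and its second probe changed by 1.09. The Creld2 call was lost without WT 3 h replicate 2 (0.0568), WT 6 h replicate 1 (0.0976) or WT 6 h replicate 2 (0.0707).

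Not every member rose. The stress sensor gene Ern1 (-0.66), Wfs1 (-0.45) and the degradation factor gene Herpud1 (-0.38) were lower. Xbp1, the factor that IRE1 activates by splicing its mRNA, read 14.12 and 14.12 at WT 6 h, against 14.14, 14.13 and 14.06 at WT 3 h. The groups overlapped, and its change of 0.01 had an interval of -0.19 to 0.21, which covers total mRNA only, since the probe is not known to tell the spliced form apart. Hspa5, the gene of BiP itself, changed by 0.37 (limma, adjusted p = 0.171), and was neither called nor held. Sil1 and Fkbp11 held, at -0.10 and 0.20. The higher members numbered 18 to 25 with each WT array left out in turn.

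The ER stress element (CCAAT, 9 bases, CCACG, both strands) is the site that the ATF6 factor reads with NF-Y. In the 250 bases before the gene start it stood in 10 of the 35 listed ER genes with a promoter in the table (28.6%) and in 18 of 11525 genes (0.156%). Of the 18, 9 were called higher, 0 lower and 9 not at all. The higher ones in the list were Creld2, Dnajc3, Pdia6, Ero1b, Syvn1, Calr and Hsp90b1, with changes of 0.53 to 1.07, and the others were Alg12 (0.66) and Hnrnpa3 (0.31). Hspa5, Canx and Derl3 hold the element and were not called. The element is shown for the 4 called list members with the largest changes, because so few promoters of the table hold it. Dnajc3, for an inhibitor of the kinase PERK, read 11.94 and 11.83 at WT 6 h, against 10.86, 10.73 and 11.10 at WT 3 h (0.99 ± 0.17, 0.000878). Ero1b, an oxidase that supplies disulfide bonds, read 9.46 and 9.39 at WT 6 h, against 8.69, 8.71 and 8.72 at WT 3 h (0.72 ± 0.10, 0.000255). Pdia6, a disulfide isomerase, was 0.72 ± 0.16 higher (0.00509). Coordinates are of GRCm38.p6, capitals mark the element, and all 4 genes lie on the + strand. The stretches are chr15:88819490-88819569 for Creld2, chr14:118937797-118937876 for Dnajc3, chr12:17266461-17266540 for Pdia6 and chr13:12565652-12565731 for Ero1b.
Creld2: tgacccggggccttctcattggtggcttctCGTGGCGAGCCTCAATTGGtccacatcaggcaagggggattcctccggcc
Dnajc3: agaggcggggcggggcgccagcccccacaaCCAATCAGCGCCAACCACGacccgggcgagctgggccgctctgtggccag
Pdia6: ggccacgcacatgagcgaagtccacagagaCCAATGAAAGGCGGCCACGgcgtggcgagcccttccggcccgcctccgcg
Ero1b: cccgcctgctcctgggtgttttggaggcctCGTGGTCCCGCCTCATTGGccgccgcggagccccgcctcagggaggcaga

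The machinery that brings proteins into the ER, trims and glycosylates them and sends them on in coated vesicles moved in 1 direction. Of 60 genes 57 were tested, and 44 were higher and 0 lower, with a median of 0.413 and 29 within 1.5-fold. The list mean was 11.149 and 11.184 at WT 6 h, against 10.765, 10.727 and 10.747 at WT 3 h. Sec11c, a catalytic subunit of signal peptidase, read 10.34 and 10.34 at WT 6 h, against 9.40, 9.16 and 9.21 at WT 3 h (1.08 ± 0.12, 6.53e-05). Spcs3, another subunit of that enzyme, read 11.59 and 11.54 at WT 6 h, against 10.59, 10.40 and 10.50 at WT 3 h (1.07 ± 0.13, 8.97e-05). Lman1, a cargo receptor of vesicles that leave the ER, read 10.94 and 11.06 at WT 6 h, against 9.93, 9.96 and 9.94 at WT 3 h (1.06 ± 0.12, 7.94e-05). The 3 changes were of similar size, and none of the genes had overlapping arrays. Ssr4, of the complex beside the translocation channel, was 0.99 higher, and 1.11 on its second probe. Held members included Spcs1, a noncatalytic subunit of signal peptidase, with a change of 0.06 and an interval of -0.06 to 0.19. The oligosaccharyltransferase gene Stt3b changed by 0.17 and the vesicle coat gene Sec13 by 0.33, both called and both within 1.5-fold. With each WT array left out the higher members numbered 30 to 38, and 0 were lower in any of these.

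Cholesterol synthesis genes, which the SREBP factors switch on together, were higher as well. Of 27 listed 19 were tested, and 14 were higher and 0 lower, with a median of 0.435. The list mean was 9.852 and 9.821 at WT 6 h, against 9.381, 9.344 and 9.379 at WT 3 h. Fdps, which makes the precursor farnesyl diphosphate, read 11.81 and 11.94 at WT 6 h, against 10.85, 10.50 and 10.72 at WT 3 h (1.19 ± 0.17, 0.000297), and 0.26 higher on a dimmer probe. Sqle, the squalene oxidising enzyme, read 12.39 and 12.34 at WT 6 h, against 11.51, 11.40 and 11.45 at WT 3 h (0.91 ± 0.13, 0.000339). Hsd17b7 (0.96) and Lss (0.95), also of the pathway's later steps, rose as far on their brightest probes, while dim probes of both changed by 0.06 and 0.04. Srebf2, for the factor itself, read 9.72 and 9.52 at WT 6 h, against 9.33, 9.33 and 9.34 at WT 3 h, a called change of 0.28 (0.033) that stayed within 1.5-fold. The sterol regulatory element searched (TCACNCCAC, both strands) was found in 0 of 16 promoters of the list and in 1.21% of all. With each WT array left out the higher members numbered 11 to 13.

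**Figure D3:**
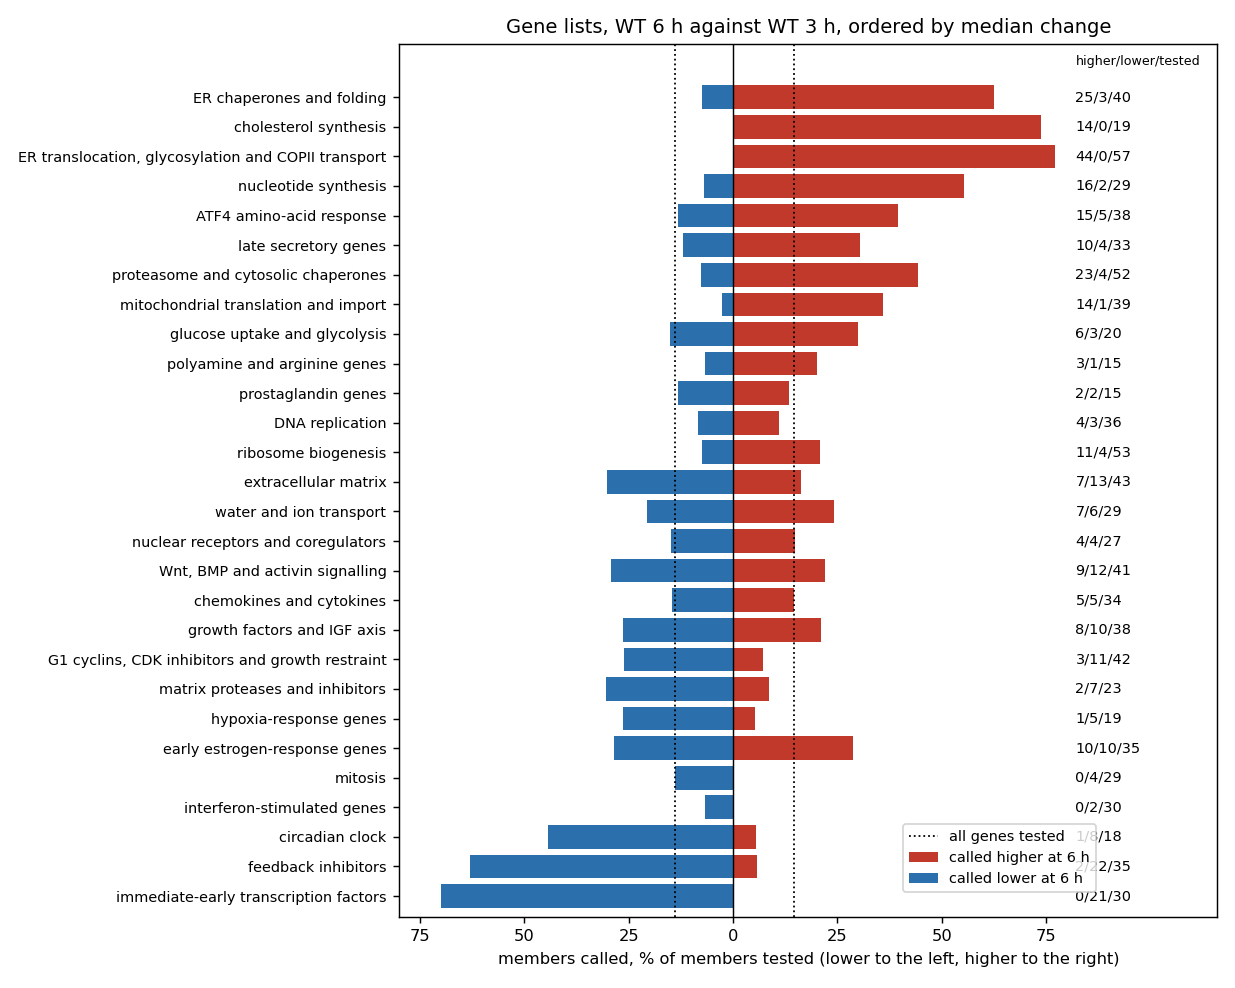
Share of tested members called higher (red, to the right) and lower (blue, to the left) at WT 6 h against WT 3 h, in percent, for 28 gene lists ordered by their median change, with the counts at the right and dotted lines at 14.5% and 14%, the shares over all genes. ER entry and transport has the longest red bar (44 of 57) and immediate-early factors the longest blue bar (21 of 30).

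The growth machinery of the nucleolus mostly held, as did most genes. Of 53 tested ribosome biogenesis genes of 60 listed, 50 stayed within 1.5-fold (94.3%, beside 87.7% of all genes), and the median was 0.033. Of the 53, 11 were called higher (20.8%, beside 14.5% of all genes) and 4 lower (7.55%, beside 14%). Npm1, an abundant nucleolar chaperone, read 14.58 and 14.52 at WT 6 h, against 14.31, 14.42 and 14.54 at WT 3 h, with overlapping arrays and a change of 0.12 (interval -0.06 to 0.30). Heatr1 and Gar1, of pre-rRNA processing and of RNA-guided modification, changed by -0.13 and 0.01 and held. The members that moved most were Ubtf, the polymerase I activator, which was lower (-0.62 ± 0.11, 0.00142, and -0.72 on its brightest further probe), and Pno1, of small-subunit assembly, which was higher (0.55 ± 0.09, 0.000514). Nucleotide synthesis genes were higher in 16 of 29 cases and lower in 2, with a median of 0.26. Among them Nme1, a nucleoside diphosphate kinase, read 14.05 and 13.96 at WT 6 h, against 13.27, 13.37 and 13.50 at WT 3 h (0.63 ± 0.08, 0.000152). Uck2, of uridine salvage, was 0.66 higher, Atic, of purine synthesis, 0.60, and Cad, of pyrimidine synthesis, 0.60. Ctps, the CTP synthase, held at -0.08.

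Mitochondrial ribosome and import genes were higher in 14 of 39 cases and lower in 1, led by Mrps12 (0.76 ± 0.10, 0.000214), with 34 held (87.2%, beside 87.7% of all genes). Of 52 proteasome and cytosolic chaperone genes 23 were higher and 4 lower, and 45 held (86.5%, again near the share of all genes). The proteasome subunit Psmd14 was 0.74 higher on its brightest probe and on the other, and the heat shock genes Dnajb1 (-0.87), Hspa1a (-0.85) and Hspa4l (-0.80) were lower. Dnajb1, a co-chaperone, read 12.11 and 12.29 at WT 6 h, against 13.11, 13.03 and 13.07 at WT 3 h (-0.87 ± 0.08, 2.38e-05). The constitutive chaperone Hspa8 held, at 0.07. Glycolysis genes were higher in 6 of 20 cases (30%, beside 14.5% of all genes) and lower in 3 (15%, beside 14%). Pgk1 rose by 0.65 ± 0.05 (1.05e-05) and Ldha by 0.51, Hk1 fell by 0.49, and Gapdh was called higher at 0.38 within 1.5-fold. In the polyamine list Odc1, the rate-limiting enzyme, was 0.55 ± 0.05 higher (3.17e-05), and 3 of 15 were higher and 1 lower. Without either WT 6 h array the proteasome list had 11 higher members, and without WT 6 h replicate 1 the mitochondrial list had 8.

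Genes known for an early response to estrogen took separate courses, with 10 of 35 tested higher and 10 lower and a median of -0.098. Wnt4, a signal between uterine stroma and epithelium, read 9.97 and 9.81 at WT 6 h, against 11.24, 11.50 and 11.68 at WT 3 h (-1.58 ± 0.18, 8.97e-05), and its second probe changed by -1.22. Igf1, the growth factor that uterine stroma supplies to the epithelium, read 13.06 and 13.29 at WT 6 h, against 12.05, 11.85 and 12.10 at WT 3 h (1.18 ± 0.18, 0.000505), and its second probe changed by 0.95. Both genes had clear gaps between the groups, in opposite directions. Inhba, which encodes the activin A subunit, read 11.09 and 11.15 at WT 6 h, against 9.91, 9.95 and 10.13 at WT 3 h (1.12 ± 0.20, 0.00113). Il17rb rose by 1.20 ± 0.12 (4.06e-05). Creatine kinase B (Ckb), a classical estrogen-induced protein of the rat uterus, read 15.83 and 15.78 at WT 6 h, against 15.94 on all 3 WT 3 h arrays. Its change of -0.14 (interval -0.26 to -0.02) was not called, and since 15.94 is the highest value on the arrays, no higher 3 h level and no larger fall could have been read. Hspb8 and Sgk1 held, at -0.09 and -0.10. Without 1 of the WT 3 h arrays 9 or 10 members of this list were higher and 8 or 10 lower. Both counts were smaller without either WT 6 h array, which leaves 1 array in that group.

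Late secretory genes, the products of estrogen-stimulated glands and surface epithelium, were higher in 10 of 33 cases (30.3%, beside 14.5% of all genes) and lower in 4 (12.1%, beside 14%). Beside Lcn2, the carbonic anhydrase gene Car2 read 10.87 and 10.82 at WT 6 h, against 9.88, 9.63 and 9.62 at WT 3 h (1.14 ± 0.18, 0.000549), with a dim second probe at -0.03. Aqp5, a water channel of gland cells, went the other way and read 10.09 and 9.97 at WT 6 h, against 11.81, 11.44 and 11.42 at WT 3 h (-1.52 ± 0.11, 1.05e-05). Muc1, Wfdc2 and Ovgp1 held, at 0.30, -0.22 and -0.05. In the wider list of water and ion transport, 7 of 29 were higher and 6 lower. The chloride channel gene Cftr read 9.66 and 9.72 at WT 6 h, against 8.47, 8.51 and 8.57 at WT 3 h (1.18 ± 0.13, 5.95e-05), with a dim second probe at 0.02. Car12, another carbonic anhydrase, was 1.02 ± 0.23 higher (0.00592), a call lost without WT 6 h replicate 2 (0.0696) and with all 17 arrays in the fit (0.069). Slc12a2, a salt cotransporter, was called higher at 0.30 and stayed within 1.5-fold. The late secretory list had 5 higher members without WT 6 h replicate 2.

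Growth factor and insulin-like growth factor (IGF) genes were higher in 8 and lower in 10 of 38 cases. While Igf1 was higher, the receptor gene Igf1r read 10.03 and 10.02 at WT 6 h, against 11.09, 11.23 and 10.95 at WT 3 h (-1.06 ± 0.14, 0.000165), with the brightest of its further, dimmer probes at -0.30. Igfbp5, for a binding protein of IGF1, was 0.87 ± 0.12 higher (0.000211), and 0.83 on the brightest of its other probes. Vegfa, the angiogenic and permeability factor, read 12.98 and 13.08 at WT 6 h, against 13.84, 14.00 and 13.85 at WT 3 h (-0.86 ± 0.11, 0.000124), and its brightest further probe changed by -0.98. Ligand and receptor of the IGF axis thus differed in sign, and the arrays of neither overlapped. Egfr, Igfbp4 and Igfbp7 held, at 0.07, -0.28 and -0.14. Of the 41 tested Wnt, BMP and activin genes 9 were higher and 12 lower, against 6 and 4 without WT 6 h replicate 2. Dkk3, of the Dickkopf family, read 9.79 and 9.86 at WT 6 h, against 11.25, 11.46 and 11.31 at WT 3 h (-1.51 ± 0.16, 4.7e-05), and the secreted Wnt antagonist gene Sfrp2 was lower (-1.04 ± 0.09, 2.19e-05). The epithelial ligand gene Wnt7a was 0.90 ± 0.10 higher (7.94e-05).

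In the list of G1 cyclins, CDK inhibitors and growth restraint, 11 of 42 were lower and 3 higher (6 lower without WT 6 h replicate 2). Tob1, Ypel3 and Pdk4 had its largest falls, and Klhl24 was lower by the test (-0.73 ± 0.22, 0.0235), a call lost without any 1 of 4 WT arrays (0.0672 to 0.129). Cyclin D1 (Ccnd1) read 12.24 and 12.15 at WT 6 h, against 12.17, 12.03 and 12.24 at WT 3 h. Its arrays overlapped and its change of 0.05 had an interval of -0.17 to 0.26. Of 36 DNA replication genes 30 held (83.3%, beside 87.7% of all genes), with 4 higher and 3 lower. Fen1, a flap nuclease, was 0.63 ± 0.11 higher (0.000941), and the helicase subunit gene Mcm4 held at 0.05. Mitosis genes included 4 lower (13.8%, beside 14% of all genes) and 0 higher of 29, with a median of -0.169. Mad2l1, a spindle checkpoint gene, read 11.71 and 11.68 at WT 6 h, against 12.70, 12.79 and 12.79 at WT 3 h (-1.06 ± 0.16, 0.000495), and its second probe changed by -0.73. When the 5 WT arrays were fitted alone 12 mitosis genes were lower, and with all 17 arrays in the fit 1 was.

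Circadian clock genes run on a daily cycle in most tissues, and the arrays of 3 h and 6 h also differ in the time of day unless dosing was staggered, of which the sources used here say nothing. Of 18 tested 8 were lower and 1 higher, with a median of -0.271. Nr1d2, a repressor of the clock, read 9.30 and 9.32 at WT 6 h, against 10.43, 10.61 and 10.45 at WT 3 h (-1.18 ± 0.13, 6.85e-05), with a dim second probe at -0.25. Per2, of the negative limb, read 12.58 and 12.57 at WT 6 h, against 13.43, 13.45 and 13.60 at WT 3 h (-0.92 ± 0.10, 7.43e-05), and its brightest further probe changed by -0.91. Rora (-0.82) and Ciart (-0.80) were lower too, whereas Clock and Arntl, the positive limb, held at 0.04 and 0.20. The part of the time of day in these values was not tested.

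Extracellular matrix genes were lower in 13 of 43 cases (30.2%, beside 14% of all genes) and higher in 7 (16.3%, beside 14.5%). The small leucine-rich proteoglycan gene Prelp read 11.10 and 10.67 at WT 6 h, against 12.25, 12.33 and 12.00 at WT 3 h (-1.31 ± 0.18, 0.000258). Tnxb, for tenascin X, was lower (-0.88 ± 0.12, 0.000216), whereas Tnc, for tenascin C, was among the largest rises. Fibrillar collagen gene Col5a1 held at 0.10. Of the 23 matrix proteases and inhibitors, 7 were lower and 2 higher. Htra3, a serine protease of uterine stroma, read 12.22 and 12.06 at WT 6 h, against 13.18, 13.43 and 13.27 at WT 3 h (-1.15 ± 0.12, 5.04e-05), with its dimmer probe at -0.22. The aggrecanase gene Adamts4 (-0.85), Mmp2 (-0.72) and its inhibitor Timp2 (-0.83) were lower, and the kallikrein gene Klk1, which has near-identical relatives, held at 0.09. Without WT 6 h replicate 2 the number of higher matrix genes was 2, and without WT 3 h replicate 2 it was 3.

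Prostaglandin, cytokine and receptor genes were called about as often as genes in general (28.4% of all, in either direction). Of 15 prostaglandin genes 2 were higher and 2 lower. Ptges, the inducible prostaglandin E synthase, read 10.83 and 10.60 at WT 6 h, against 11.82, 12.07 and 11.59 at WT 3 h (-1.12 ± 0.19, 0.000983), while the receptor gene Ptger3 was 0.58 ± 0.10 higher (0.00109). Of 34 chemokines and cytokines 5 were higher and 5 lower: next to Ccl11, the monocyte chemokine Ccl7 was 0.91 higher on its brightest probe and 0.87 on the other, and Cxcl14 (-0.91) and Il11 (-0.86) were lower. Nuclear receptors and coregulators had 4 higher and 4 lower of 27. The progesterone receptor gene Pgr, a textbook estrogen target, read 10.66 and 10.77 at WT 6 h, against 10.82, 10.74 and 10.91 at WT 3 h. Its arrays overlapped, and the change of -0.10 had an interval of -0.26 to 0.05. Indian hedgehog (Ihh), an epithelial signal, and its receptor gene Ptch1 were higher by 0.63 ± 0.09 (0.000308) and 0.72 ± 0.13 (0.00121). Of 30 interferon-stimulated genes 2 were lower, Usp18 (-1.05) and Irf1 (-0.56), and 0 higher, but 14 were lower when the 5 WT arrays were fitted alone. Hypoxia-response genes had 5 lower and 1 higher of 19, with P4ha2, a collagen prolyl hydroxylase (-0.91), and the vasodilator gene Adm (-0.70) lower.

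Markers of the uterine cell types were read to see whether the makeup of the samples moved with the step. Acta2, the smooth muscle actin, read 15.92 and 15.90 at WT 6 h, against 15.92, 15.87 and 15.90 at WT 3 h, near the top of the scale on all arrays, where little change can be read. Of 14 smooth muscle markers 3 were higher (Myocd, Cald1 and Tagln, at 0.80, 0.61 and 0.56), 2 were lower (Smtn and Lmod1, at -0.69 and -0.39) and 9 held. The mean over these 14 was 11.527 and 11.549 at WT 6 h, against 11.498, 11.338 and 11.437 at WT 3 h. Epithelial markers were higher in 8 of 18 cases and lower in 2, with a list mean of 10.059 and 10.016 at WT 6 h, against 9.845, 9.863 and 9.841 at WT 3 h. The tight junction gene Cldn3 (1.06) and Wnt7a (0.90) led them, and the adhesion gene Cdh1 was called higher at 0.22, within 1.5-fold. This stands beside the rises of epithelial secretory genes above, and its part in them was not tested. Fibroblast markers were lower in 4 of 12 and higher in 2, among them the proteoglycan gene Dcn (-0.55). Endothelial markers were lower in 3 of 13, and 12 of the 13 held, with a mean of 10.254 and 10.209 at WT 6 h, against 10.391, 10.396 and 10.306 at WT 3 h. Macrophage markers had 0 of 13 called. Lymphocyte markers were lower in 2 of 7 (Cd3g and Cd79b, at -0.54 and -0.34) with a median of -0.326, and their mean was 8.4 and 8.43 at WT 6 h, against 8.587, 8.727 and 8.655 at WT 3 h. Mesothelial markers were lower in 1 of 7 (Upk3b, at -0.61), a share of 14.3% beside 14% of all genes. Their mean was 8.339 and 8.295 at WT 6 h, against 8.499, 8.612 and 8.477 at WT 3 h. The endothelial, lymphocyte, mesothelial and adipocyte means lay lower on every 6 h array than on any 3 h array. The epithelial and smooth muscle means lay higher. Over all genes tested, the arrays of the groups did not overlap for 55%. The lymphocyte and mesothelial means also lay near the array median of 8.2. The part of these marker differences in other results was not tested.

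Adipocyte markers differed between the 3 h arrays. Their mean was 8.837 and 8.967 at WT 6 h, against 9.533, 10.081 and 9.334 at WT 3 h, with replicate 2 the highest, and their median change was -0.743. Only Pparg, the fat cell regulator, was called (-1.17 ± 0.11, 2.77e-05), and 7 of the 9 were neither called nor held. Adipoq, the adiponectin gene, read 8.57 and 9.03 at WT 6 h, against 9.90, 10.59 and 9.50 at WT 3 h. These values stand beside those of 2 lipid genes among the largest changes. Pdk4, the kinase that restrains glucose oxidation, read 9.84 and 9.75 at WT 6 h, against 11.55, 11.52 and 11.49 at WT 3 h (-1.73 ± 0.16, 2.42e-05). The adipocyte mean and Pdk4 were both higher on every WT 3 h array than on either WT 6 h array. Angptl4 read 10.82 and 11.00 at WT 6 h, against 9.40, 9.43 and 9.02 at WT 3 h, and so was higher at 6 h. The part of fat tissue in the samples was not tested. Markers of red cells also differed within the groups, with means of 11.306 and 11.944 at WT 6 h, against 11.46, 11.016 and 11.689 at WT 3 h. The defining markers of granulocytes lay near the array median (a list mean of 8.153 to 8.259 over the 5 arrays), as did those of the ovary and oviduct (8.411 to 8.704).

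The 24 h arrays show where some of these levels stood later, as a description only. Fos averaged 12.47 at 3 h, 10.77 at 6 h and 10.02 at 24 h. Chac1 stood at 12.89, 9.09 and 8.70 at these times, and Wnt4 at 11.47, 9.89 and 8.53. Their 24 h arrays lay below their 6 h arrays. Sdf2l1 stood at 9.02 at 3 h, 10.59 at 6 h and 9.75 at 24 h, so that the 6 h arrays were the highest, and Sox5 at 9.94, 11.90 and 9.78. Lcn2 stood at 12.12, 13.77 and 14.59, Cftr at 8.52, 9.69 and 10.26, and Fdps at 10.69, 11.87 and 13.08, with the 24 h arrays on top in each. Npm1 stood at 14.43, 14.55 and 14.30.

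**Figure D4:**
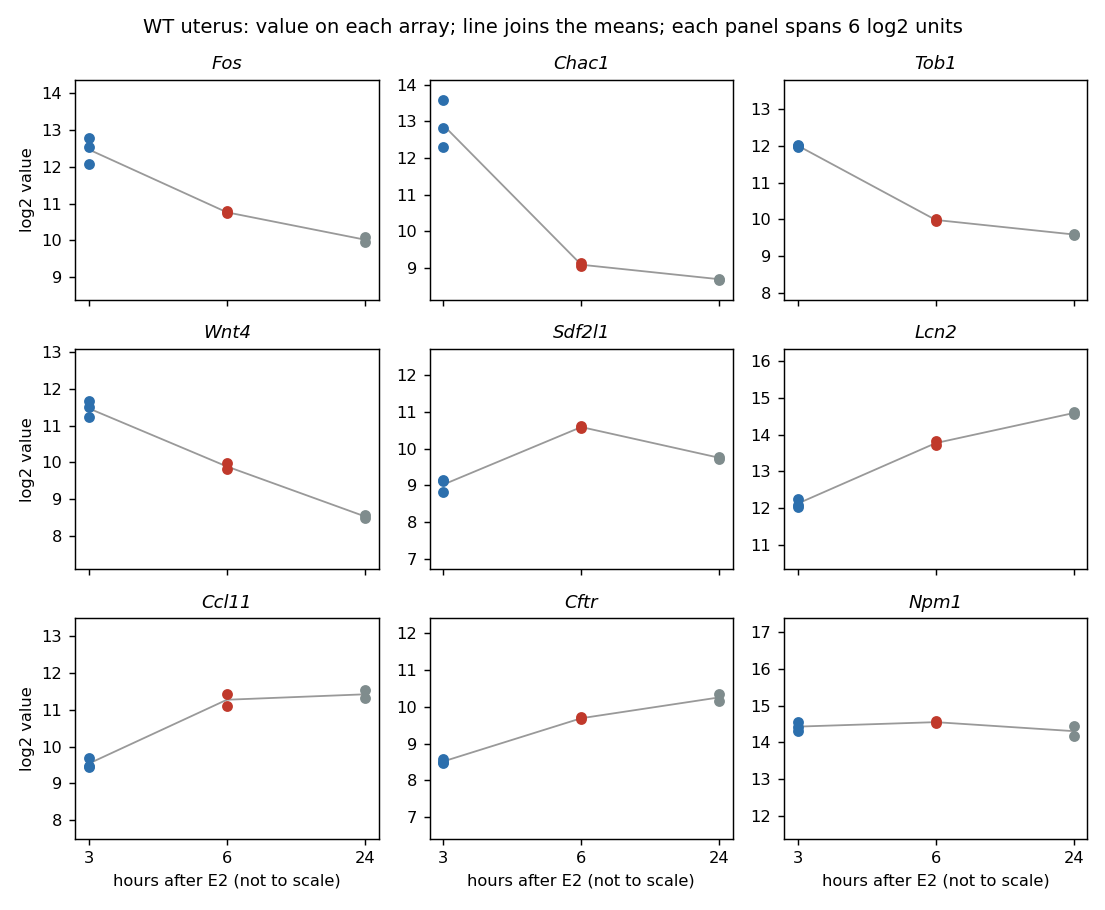
Log2 expression value (y axis) of 9 named genes on each WT array at 3, 6 and 24 h after E2 (x axis, not to scale), with a line through the means and each panel spanning 6 log2 units. Fos, Chac1, Tob1 and Wnt4 are lower at each later time, and Lcn2 and Cftr are higher. Ccl11 is higher at 6 h than at 3 h, and its 6 h and 24 h arrays overlap. Sdf2l1 is highest at 6 h, and Npm1 stays between 14.17 and 14.58.

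Egr1, the gene disrupted in the study, is itself an immediate-early factor and had 1 probe. On the WT arrays it read 13.85 and 13.97 at 6 h, against 14.87, 14.94 and 14.56 at 3 h, with no overlap and a change of -0.88 ± 0.17 (0.00202). On the arrays labelled KO the same probe read 14.74 and 14.55 at 6 h, against 14.69 and 14.59 at 3 h, a change of 0.01. The step in WT differed from that in KO by -0.89 ± 0.25, which did not pass the test (0.169). Because the probe's signal was not lower on the arrays labelled KO, and its place relative to the disrupted part is unstated in the labels, it does not check the labels, and each direction between genotypes below is one between labels.

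Most genes called in the WT step were called the same way in the KO step. Whether the 2 steps were equal for a gene was not tested, and a difference that was not called does not show it. In KO uterus 1883 genes were higher at 6 h (13.1%) and 1865 lower (13%). The WT and KO steps share no array. Of the called genes 2518 moved the same way in both, which is 61.7% of the WT calls and 67.2% of the KO calls, and 26 moved in opposite directions. Across genes, which are not independent replicates, the changes correlated at 0.793. Wwc2 changed by -1.87 in WT uterus and by -1.90 in KO, and Lcn2 rose by 1.65 in both. For several of the largest falls the KO 6 h arrays stood apart from each other. Chac1 read 10.06 and 12.71 on the KO 6 h arrays, against 13.66 and 12.47 at KO 3 h, and Tob1 read 10.84 on the second of them, against 9.83 on the first. The KO change of Chac1 (-1.68 ± 0.65) was not called (0.0793), and its difference from the WT change (-2.12 ± 0.88) was not either (0.35). In the immediate-early list 11 members were lower and 1 higher in KO, with a median of -0.226, and in the ATF4 list 23 were higher and 2 lower, with a median of 0.568. No member of either list differed between the steps by the test. The ER entry list had 34 higher and 1 lower in KO, the ER chaperone list 19 and 3, and the cholesterol list 11 and 0.

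The difference between the steps was called for 34 of 14358 genes (0.237%), 19 with the WT step above the KO step (0.132%) and 15 below it (0.104%). Slc25a48 read 10.98 and 10.74 at WT 6 h, against 9.29, 9.02 and 9.31 at WT 3 h, and 9.32 and 10.26 at KO 6 h, against 9.83 and 10.25 at KO 3 h. The difference was 1.90 ± 0.32 (0.0407), and the KO arrays of the 2 times overlapped. Il17rb rose by 1.20 in WT and changed by -0.02 in KO (difference 1.22 ± 0.18, 0.0176). Cldn3 read 11.46 and 11.26 at WT 6 h, against 10.44, 10.14 and 10.31 at WT 3 h, and fell by 0.53 in KO (difference 1.59 ± 0.22, 0.0154). Tfcp2l1, an epithelial transcription factor gene, fell in both, by 0.46 in WT and by 1.94 in KO (difference 1.48 ± 0.17, 0.00902). Nt5e, an ecto-enzyme that makes adenosine, held in WT, with arrays of 9.73 and 9.56 at 6 h, against 9.70, 9.68 and 9.63 at 3 h, and fell by 1.13 in KO (difference 1.10 ± 0.13, 0.00902).

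Genes with the WT step below the KO step included Krt23, a keratin gene, which read 10.31 and 10.20 at WT 6 h, against 11.34, 10.98 and 11.00 at WT 3 h, and 10.13 and 10.05 at KO 6 h, against 9.61 and 9.46 at KO 3 h. The difference was -1.41 ± 0.18 (0.00933), and both genotypes came to similar values at 6 h. Slpi, for a secreted protease inhibitor, fell by 0.94 in WT and rose by 0.60 in KO (difference -1.54 ± 0.26, 0.0407), with KO 6 h arrays of 9.79 and 9.02. Plk2, an early-response kinase gene, the hyaluronan synthase gene Has1 and the endothelial adhesion gene Sele differed by -1.07, -0.96 and -0.94, and Fermt1, a kindlin of epithelial adhesion, which rose in both, by -0.89. The second probes of Has1 and Fermt1 were dim and barely moved in WT (0.00 and 0.08). The number of genes called by limma was 18 to 24 without 1 of the WT 3 h arrays. It was lower without a WT 6 h array and higher without a KO array of 3 h or 6 h. Each of these latter fits leaves 1 array in the group, whose spread then drops out of the pooled estimate. Such counts therefore do not show the weight of the array left out. With each WT and KO array of 3 h and 6 h left out in turn, the difference ran from 1.432 to 2.372 for Slc25a48. For Slpi it ran from -1.931 to -1.158.

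**Figure D5:**
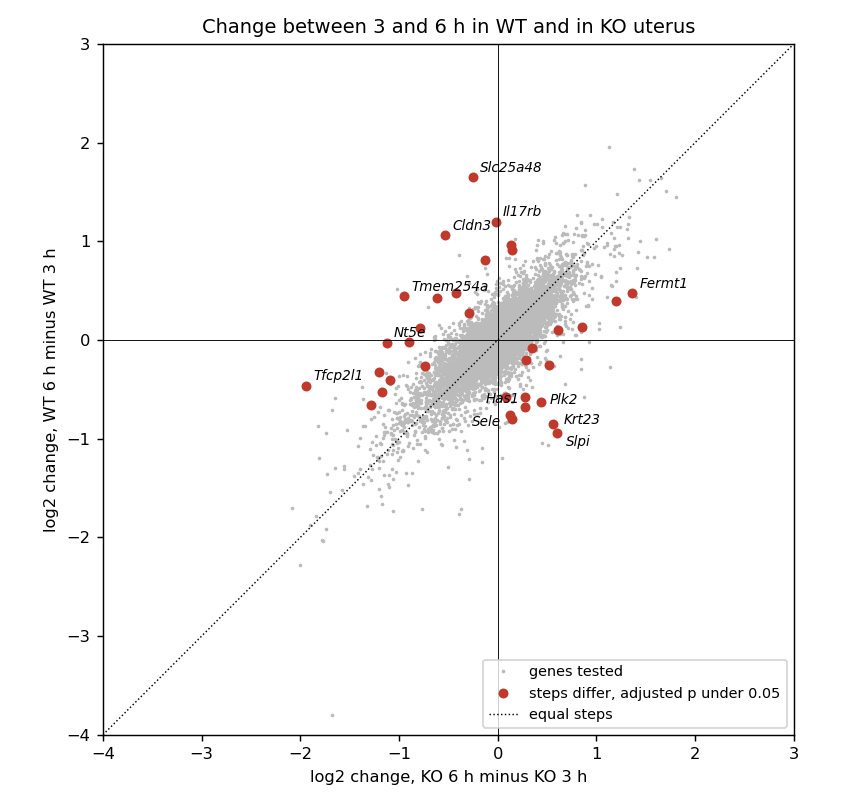
Log2 change between 3 and 6 h in WT uterus (y axis) against that in KO uterus (x axis) for all 14358 genes tested (grey), with the 34 genes whose steps differ by limma's test in red and the dotted line where the steps are equal. Most points lie along the line, Slc25a48, Cldn3 and Il17rb lie above it, and Slpi and Krt23 lie below it, with a fall in WT and a rise in KO.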

How the data were processed

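Total uterine RNA was read on Illumina MouseWG-6 v2 bead arrays. The deposited table holds log2 values, and the authors had already made all columns share 1 distribution, since the sorted values of the 17 arrays differ by 0. BeadStudio is named per the submitters' processing notes (version not stated), while the sources used here do not state the background correction. Of 45281 probes 34903 are listed in the platform annotation, 34885 with 1 gene symbol, 18 with several and 10378 not listed. Of these 34807 matched RefSeq by Entrez ID, with 0 symbols changed. Each of 19057 symbols was represented by its probe with the highest mean over the arrays used. A gene was tested (14358) where it exceeded 8.2, the median of every array, on 2 or more of the 13 arrays of 3, 6 and 24 h in both genotypes. The arrays taken before E2 entered neither the filter, the probe choice nor the fit, except in the alternative with all 17 arrays. limma 3.58.1 in R 4.3.3 fitted 6 group means (residual df 7, prior df 5.06), with Benjamini-Hochberg adjustment over all genes tested at 0.05, and the WT step minus the KO step was an interaction contrast. The fit was tested on simulated data with known changes. The number of arrays limits the precision.

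The genes named were, among called genes without overlap between the WT groups, the 15 largest rises and 15 largest falls, then up to 4 called members a list with the largest change, up to 3 held members with the highest mean, the 6 highest and 6 lowest genes of the WT and KO difference, called members that hold a promoter motif, and Egr1. Other genes were named after their values were seen, to account for small counts. The members and gene lists were chosen with earlier results of these data known. Promoters are RefSeq's (GRCm38.p6), and 11525 of the tested genes matched 1 or more, with 14545 starts in all. A gene counted as holding a motif where any of its starts held it, so counts of promoters are counts of genes. Of the 8 motifs searched in them, not all are described here. The replicate numbers are tied to no animal or day by the labels, and deviations from the group means correlated at -0.03 to 0.03 between WT 6 h and WT 3 h arrays, so the fit had no block. Alternatives changed the filter, the arrays in the fit, the scaling, the probe rule, the block and each array.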

Additional observations from a re-analysis of the deposited data

Results flagged for a closer look

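The step from 3 h to 6 h differed between WT and KO uterus, by limma's interaction test with adjusted p under 0.05, for 12 of the named genes, given here as the WT change minus the KO change on the log2 scale. The WT step lay above the KO step for Slc25a48 (1.90), Cldn3 (1.59), Tfcp2l1 (1.48), Tmem254a (1.39), Il17rb (1.22) and Nt5e (1.10). It lay below the KO step for Slpi (-1.54), Krt23 (-1.41), Plk2 (-1.07), Has1 (-0.96), Sele (-0.94) and Fermt1 (-0.89). Tmem254a changed by 0.44 in WT, which was not called (0.0668), and read 9.49 and 9.58 on the KO 6 h arrays, against 10.16 and 10.81 at KO 3 h. The calls were lost without WT 6 h replicate 1, which leaves 1 array in that group. Each difference kept its sign with each WT and KO array of 3 h and 6 h left out in turn. The groups hold 2 or 3 arrays, so no single array was tested for standing apart.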

How the results depend on the processing

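Of 160 results on named genes, the WT change of Nt5e alone changed sign under the alternatives run. It ranged between -0.113 and 0.056 over the settings without 1 array, was positive without WT 6 h replicate 2, and the cause was not tested. Calls were lost for 27 and 26 without WT 6 h replicate 1 and 2, for 8 to 12 without a WT 3 h array, for 9 with all 17 arrays, and for 7 with the mean of probes. With each WT and KO array of 3 h and 6 h left out in turn, higher genes numbered 1243 to 2292, lower genes 1154 to 2293, genes changed at least 2-fold 128 to 163, and genes called for the WT and KO difference 0 to 429. A fit without a WT 6 h array or a KO array leaves 1 array in that group, so its counts do not show the weight of the array left out. Leaving out KO arrays was chosen after seeing the data. With the 5 WT arrays of 3 h and 6 h alone in the fit, 2400 genes were called higher and 2418 lower. Of the 4084 called genes 2364 remained called without WT 6 h replicate 2 and 4075 with 7 WT arrays in the fit. The mean of probes left 87 genes changed at least 2-fold, a measure that averages bright and dim probes. The difference was called for 22 genes with all 17 arrays. No block was used because no label ties the replicate numbers. The replicate block by number gave 1781 higher, 1807 lower and 16 for the difference, and the block by letter 1880, 1845 and 27. Cyclic loess scaling gave 1863 higher and 2254 lower, and no scaling moved the median of all genes by more than 0.011. With 2 or 3 arrays a group, the median SE was 0.068, dim probes show smaller changes than bright ones, and quantile-normalized values cannot show a change common to all genes.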
